A study of Mus musculus with 2 samples.

Results

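Foxp3-positive regulatory T cells were described in immune cells sorted from mouse tumours. Members were selected on measured counts: a cell was taken when its barcode held at least 1 UMI (unique molecular identifier, a tag that counts a captured transcript once) of Foxp3, at least 2 UMIs summed over Cd3e, Cd3d and Cd3g, no UMI of the B cell gene Cd79a and fewer than 2 UMIs summed over the cycling genes Mki67 and Top2a. This gate held 368 of the 12252 cells kept from both libraries, 247 of 6419 in the control library and 121 of 5833 in the treated library. The gate used these counts, so the levels of Foxp3, the Cd3 genes, Cd79a, Mki67 and Top2a in it are given only as a description.

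The tumours were grown under the skin of wild type BALB/c mice from MFC cells, a mouse forestomach carcinoma line, digested with collagenase and DNase, freed of red blood cells by lysis and sorted for the leukocyte marker CD45. The library called control here came from mice given PBS. For the library called treated the mice received thonzonium bromide (a surfactant with a positive charge that blocks vacuolar proton pumps) at a dose of 50 mg/kg. Dosing began on day 6 and was repeated every other day until the tumours were removed on day 10. The same treatment text stands with both samples, so the groups rest on the treatment label, and the number of mice behind each library is not given in the sources used here.

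Regulatory T cells are CD4 T cells whose identity is maintained by the transcription factor Foxp3, and they restrain other lymphocytes. They bind interleukin 2 through the high-affinity receptor chain CD25 (Il2ra), take up or block costimulatory ligands through CTLA-4, and release the inhibitory cytokines IL-10, TGF-beta and IL-35. In tumours they commonly take an effector state marked by ICOS, OX40 (Tnfrsf4), GITR (Tnfrsf18), 4-1BB (Tnfrsf9), CCR8 and KLRG1.

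The median member held 4251 UMIs and 1826 genes in the control library and 4634 UMIs and 1932 genes in the treated library. Other Cd3 cells, those that met every condition except the Foxp3 UMI, numbered 1177 and 1065 and were deeper, with medians of 4995 and 6893 UMIs. Summed over members, the libraries held 1193128 and 712327 UMIs. The libraries shared 14 deposited barcodes, of which 9 were kept and none was a member. A Foxp3 UMI was seen in 3 of 186 control B cells (1.61%) and in 0 of 497 treated B cells, where a floor of 3 cells would be 0.604%. Levels below are UMIs summed over the cells of a group as counts per 1000000 of their total (CPM). Intervals are exact 95% intervals (Poisson for levels, conditional binomial for ratios, Clopper-Pearson for shares) and cover counting error only. With 1 library per group no difference between the libraries has a replicate check, and no p-value is given. A gene is said to pass the threshold where 2 levels differed by at least 1.5-fold and the interval of their ratio excluded 1.

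The 6 other markers used for these cells stood higher in members than in other Cd3 cells in both libraries. They were chosen with earlier results of these data known, so they describe the members and do not test the label. Il2ra stood at 816 CPM in control members and 678 CPM in treated members, against 84.2 and 62.6 CPM in other Cd3 cells. Ikzf2, which encodes the transcription factor Helios, stood at 2390 and 2204 CPM against 606 and 367 CPM. Ctla4 stood at 1291 and 775 CPM against 138 and 109 CPM. Members were thus far above other Cd3 cells of their own library for each of these genes. The costimulatory receptor genes Tnfrsf4 (1978 and 1711 CPM against 179 and 93.9 CPM) and Tnfrsf18 (1168 and 1039 CPM against 263 and 207 CPM) stood apart in the same way. Neb, known for the giant muscle protein nebulin, was at 460 and 299 CPM against 49.6 and 20.7 CPM. Of the 7 genes of the muscle list, Acta1, Tnnc2 and Myh4 were at 0 in members of both libraries. Ttn was not at 0 and is described at the end. The list summed to 117 and 78.6 CPM in members, against 24.7 and 14.4 CPM in other Cd3 cells.

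The genes lie apart in the genome (GRCm38, the build named as mm10 in the submitters' notes): Foxp3 at chrX:7573644-7595245, Il2ra at chr2:11642807-11693193 and Ctla4 at chr1:60887000-60915832, all protein-coding genes on the plus strand in GENCODE. Levels in members, in Foxp3-undetected Cd3 cells with a Cd4 UMI and no Cd8 UMI (128 control and 76 treated cells), in Foxp3-undetected Cd8 cells (464 and 530) and in B cells (186 and 497) are drawn in the plot of levels by cell group.

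**Figure D1:**
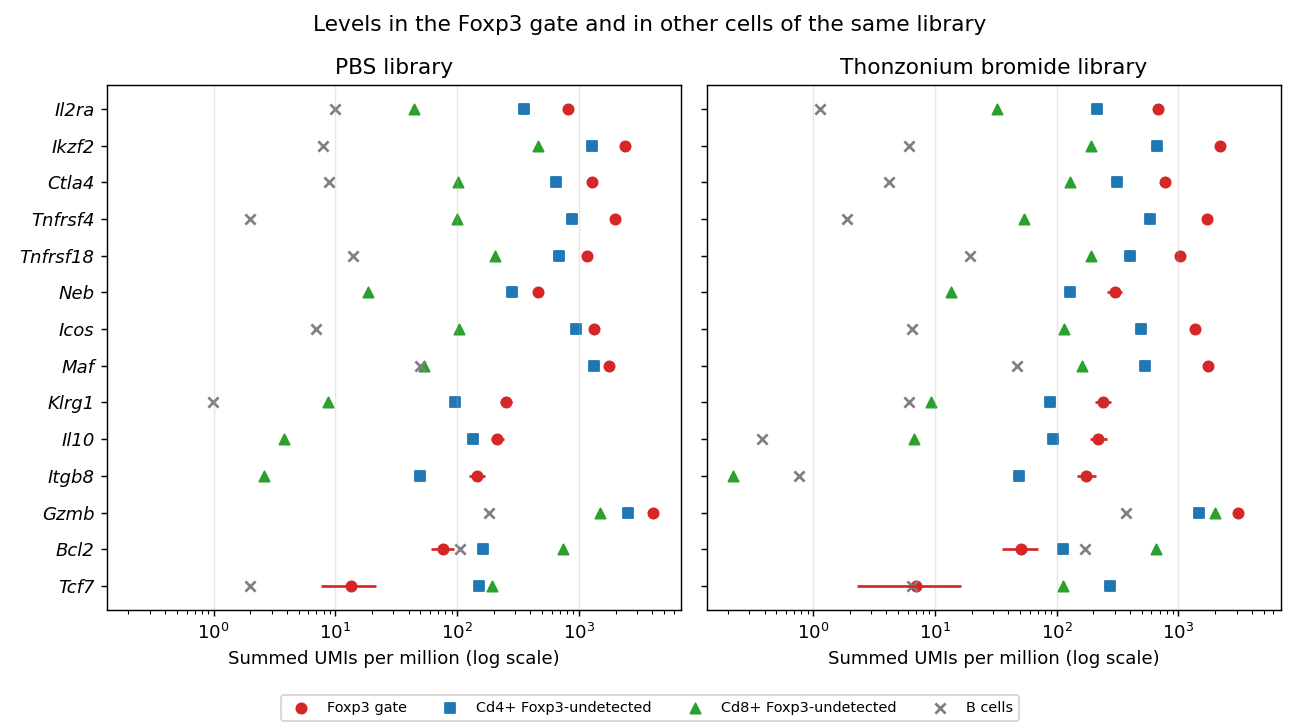
CPM (log scale) of 14 genes in the control (left) and treated (right) library, for Foxp3 members (circles with exact Poisson 95% intervals), Foxp3-undetected Cd4 cells (squares), Foxp3-undetected Cd8 cells (triangles) and B cells (crosses); a group at 0 has no symbol. Members lay highest for Il2ra, Ikzf2, Ctla4, Tnfrsf4, Tnfrsf18 and Itgb8 in both libraries and below the Cd4 and Cd8 groups for Tcf7 and Bcl2.

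Foxp3 itself was sparse. Its median was 2 UMIs per member in the control library and 3 in the treated library, and the highest counts were 12 and 10 UMIs. Members with a single Foxp3 UMI, those just inside the gate, numbered 80 and 38, and 78 and 43 members held 4 or more. The members with 1 UMI carried Il2ra at 738 and 753 CPM and Ctla4 at 1109 and 1036 CPM, while the 1177 and 1065 cells just outside with no Foxp3 UMI carried Il2ra at 84.2 and 62.6 CPM. Across the gate, then, a single UMI already separated cells with the marker pattern from most of those without it.

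Detection of Foxp3 in Cd3 cells followed the number of the 6 other markers found in the same cell. In the control library 1 of 232 cells with none of them had a Foxp3 UMI (0.431%), against 7 of 130 with 3 markers (5.38%) and 113 of 170 with all 6 (66.5%, interval 58.8 to 73.5%). In the treated library the shares were 0 of 204 (interval 0 to 1.79%), 5 of 130 (3.85%) and 44 of 68 (64.7%, 52.2 to 75.9%). At 5 or 6 markers the curves of both libraries lay within each other's counting intervals.

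**Figure D2:**
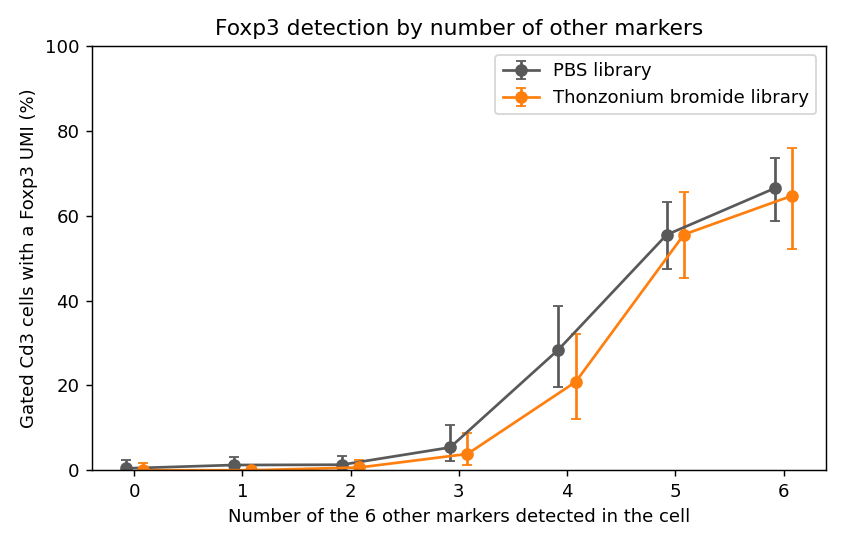
Share of gated Cd3 cells with a Foxp3 UMI (%, exact Clopper-Pearson 95% intervals) against the number of the 6 other markers (Il2ra, Ikzf2, Ctla4, Tnfrsf4, Tnfrsf18, Neb) detected in the cell, for the control and treated libraries. Shares climbed from under 2% at 0 to 2 markers to 66.5% and 64.7% at 6 markers.

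Cells with 5 or 6 of these markers were common among members and less common among other Cd3 cells. They made up 204 of 247 control members (82.6%) and 99 of 121 treated members (81.8%), against 130 of 1177 (11.0%) and 68 of 1065 (6.38%) other Cd3 cells. Within the latter, the share was higher in Foxp3-undetected Cd4 cells, 52 of 128 (40.6%) and 16 of 76 (21.1%). The 130 and 68 Foxp3-undetected cells with 5 or 6 markers carried Maf at 1082 and 1009 CPM, below the members' 1758 and 1742 CPM. They carried Il10 at 136 and 122 CPM against 214 and 220 CPM in members. Other Cd3 cells with fewer than 5 markers were far lower, with Maf at 118 and 181 CPM and Il10 at 5.92 and 11.8 CPM. The comparisons below count both kinds among other Cd3 cells. The cells with 5 or 6 markers were a mixed set, since 18.5% of them in the control library and 39.7% in the treated library had a Cd8a UMI, against 5.67% and 4.13% of members. Members and these cells together came to 26.5% (24.2 to 28.8%) of gated Cd3 cells in the control library and 15.9% (13.9 to 18.1%) in the treated library.

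The first comparison asked what share of T cells the members formed. They were 17.3% (15.4 to 19.4%) of the 1424 gated Cd3 cells in the control library and 10.2% (8.54 to 12.1%) of the 1186 in the treated library, a ratio of 0.588. As a share of all kept cells they were 3.85% (3.39 to 4.35%) and 2.07% (1.72 to 2.47%). Members numbered 247 and 121, while other Cd3 cells numbered 1177 and 1065. Cells were also thinned before gating, which left out shallower cells and applied every limit of the gate to the thinned counts. At 2000 UMIs the shares were 14.9% of 1144 and 6.91% of 1158 Cd3 cells, a ratio of 0.465. At 1000 UMIs they were 10.4% and 4.37%, a ratio of 0.418. The part of the cells lost and of the changed gate in these ratios was not tested.

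Cells with a Foxp3 UMI outside the gate numbered 106 and 35 in the control and treated libraries. Of these, 69 of 106 and 16 of 35 had fewer than 2 Cd3 UMIs. Those with exactly 1 Cd3 UMI and every other condition met numbered 27 and 4, with medians of 1206 and 1361 UMIs. In the control library they carried Tnfrsf4 at 733 CPM and Ctla4 at 251 CPM. The 4 treated cells carried Tnfrsf4 at 1824 CPM (875 to 3355) and Ctla4 at 2736 CPM (1531 to 4513). Cycling cells that met every other condition numbered 34 and 14, or 12.1% (8.53 to 16.5%) and 10.4% (5.79 to 16.8%) of Foxp3-positive Cd3 cells. These cycling cells kept the marker pattern, with Il2ra at 519 and 859 CPM and Tnfrsf4 at 1165 and 1543 CPM.

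Against other Cd3 cells of the same library, 963 of 8775 genes were higher (11.0%) and 415 lower (4.73%) past the threshold in both libraries. The median log2 ratio over all tested genes was 0.17 in each library. With mitochondrial, ribosomal, haemoglobin and granzyme genes left out of the total these medians became -0.10 and -0.08, and the counts became 542 higher and 711 lower. Under that scaling identity genes held 11 higher genes, costimulatory receptors 8 and tissue and effector genes 13, but suppressive mediators held 7 in place of 11, IL-2 genes 3 in place of 5 and homing receptors 5 in place of 7. The gene lists used next were chosen with earlier results of these data known, and their counts describe the members without testing them.

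Identity genes other than Foxp3 came first. Of 12 measured genes 11 were higher in members and none was lower, with median log2 ratios of 2.54 and 2.71 in the control and treated libraries. Beside the markers above these were Ikzf4 (Eos, 111 and 104 CPM against 22.1 and 17.8 CPM), Izumo1r (folate receptor 4, 138 and 191 CPM against 20.6 and 19.4 CPM), the TNF receptor gene Tnfrsf1b, Capg, and Itgae, which encodes the integrin chain CD103 (99.7 and 98.3 CPM against 11.5 and 11.0 CPM). Nrp1, a surface receptor linked to thymic origin, did not pass, at 23.5 and 37.9 CPM against 27.5 and 26.6 CPM. Gpr83 had no UMI in members of either library.

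Suppressive mediators were higher in 11 of 15 measured genes and lower in 1. Itgb8, whose product pairs with an alpha chain to activate latent TGF-beta, stood at 146 and 175 CPM against 10.1 and 4.85 CPM, which is 14.4-fold (10.9 to 19.2) and 36.2-fold (25.2 to 52.8) higher. Lrrc32, which encodes GARP, the anchor of latent TGF-beta, stood at 63.7 and 63.2 CPM against 7.51 and 2.25 CPM. Both genes, which act in the release of TGF-beta, thus stood apart in each library, whereas Tgfb1 itself did not pass in both, at 137 and 185 CPM against 119 and 117 CPM. Il10 stood at 214 and 220 CPM against 19.9 and 18.8 CPM. Ebi3, a subunit of IL-35, stood at 66.2 and 70.2 CPM against 8.76 and 4.14 CPM, while Il12a, its partner, had no UMI. The ectoenzyme genes Entpd1 (CD39) and Nt5e (CD73), which make adenosine, were higher by 3.99- and 1.59-fold and by 1.75- and 3.12-fold. Prf1, the perforin gene, was the lower one, at 66.2 and 138 CPM against 273 and 262 CPM.

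Granzyme B set members apart from the rest of the cytotoxic list. Gzmb was at 4088 and 3086 CPM against 1757 and 1822 CPM, which is 2.33-fold (2.25 to 2.41) and 1.69-fold (1.62 to 1.77) higher. Of the other 7 measured cytotoxic genes, 6 were lower, among them Nkg7 (535 and 731 CPM against 1296 and 1887 CPM) and Gzmc (325 and 281 CPM against 1606 and 793 CPM). With mitochondrial, ribosomal, haemoglobin and granzyme genes out of the total, none of the 8 cytotoxic genes was higher in both libraries and 7 were lower.

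Several granzymes were found as often in B cells. With each cell thinned to 2000 UMIs, a Gzmc UMI was found in 33.8% of control members and 36.7% of control B cells, which are not a usual source of granzymes, and in 7.76% of treated members and 7.42% of treated B cells. Gzma behaved alike, at 19.1% and 18.3% in the control and 4.31% and 5.77% in the treated library. The part of free RNA in the members' Gzmc and Gzma was not tested. Gzmb differed, at 88.4% and 81.9% of members against 18.3% and 8.45% of B cells. Il10 was found in 45 of 225 and 28 of 116 members (24.1% of the latter) against 0% and 0.206% of B cells, Itgb8 in 18.7% and 32.8% against 0% in both, and Klrg1 in 28.0% and 37.1% against 0.556% and 0.825%. Unthinned, Il10 was found in 27.1% and 38.8% of members, Itgb8 in 34.0% and 46.3%, and Klrg1 in 42.5% and 49.6%.

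**Figure D3:**
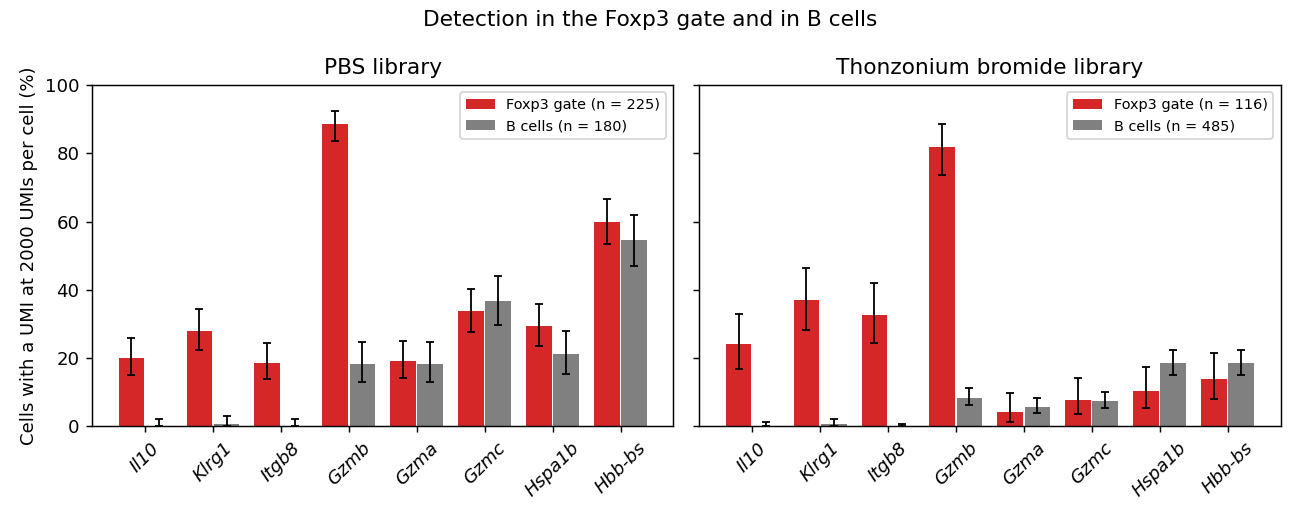
Share of cells with a UMI of each gene (%, exact Clopper-Pearson 95% intervals) after thinning every cell to 2000 UMIs, in Foxp3 members (225 control and 116 treated cells) and B cells (180 and 485); 22 control and 5 treated members were too shallow and left out. Il10, Klrg1, Itgb8 and Gzmb stood far above B cells, while Gzma, Gzmc and the haemoglobin gene Hbb-bs lay near them.

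Genes of tissue and effector regulatory T cells were higher in 15 of 18 measured genes. Maf, a transcription factor that acts on Il10, was at 1758 and 1742 CPM against 221 and 234 CPM, and Prdm1 (Blimp-1) at 163 and 129 CPM against 21.7 and 26.8 CPM. Rora, Batf and Irf4 also passed, by at least 2.36-fold in each library. Klrg1, a receptor of terminal effector cells, was at 254 and 241 CPM against 23.5 and 18.0 CPM. Areg, which encodes the repair factor amphiregulin, was at 88.0 and 82.8 CPM against 18.8 and 29.0 CPM but came from few cells, 6.88% and 8.26% of members. Penk, the enkephalin precursor, was as uneven, at 151 and 181 CPM from 12.1% and 13.2% of members. Bach2, a factor that holds T cells in a resting state, was the lower one, at 5.87 and 2.81 CPM against 35.7 and 29.9 CPM. Ccr8 had too few UMIs to enter the comparison, at 20.1 and 28.1 CPM against 3.75 and 2.84 CPM.

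Costimulatory receptors were higher in 8 of 10 measured genes. Icos was at 1327 and 1365 CPM against 184 and 137 CPM, and Tnfrsf9, Cd28, Cd27 and Cd2 were higher by at least 2.05-fold in each library. Cd226, an activating receptor of effector cells, was the lower one at 29.3 and 21.1 CPM against 82.6 and 112 CPM. Inhibitory receptors split, with 6 of 11 higher and 3 lower. Ctla4, Lag3, Tigit, Cd5, Havcr2 (TIM-3) and Vsir (VISTA) were the higher ones, and Cd160, Cd244a and Cd96, which are typical of NK and CD8 cells, the lower ones. Pdcd1, which encodes PD-1, was at 137 and 112 CPM against 75.8 and 132 CPM and did not pass in both.

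Genes of interleukin 2 and NF-kB signalling were next. Of 11 IL-2 pathway genes 5 were higher, namely Il2ra, Jak3, Stat5a and the STAT5 target genes Cish (382 and 307 CPM against 141 and 145 CPM) and Socs2 (6.81- and 5.36-fold). The shared receptor chains Il2rb and Il2rg did not pass, with ratios from 0.807 to 1.25. In the NF-kB list 7 of 11 genes were higher, among them Nfkbia (747 and 682 CPM against 243 and 235 CPM), Traf1, Nfkb2, Rel and Relb. No gene of that list was lower. Among survival genes Bcl2 was lower, at 76.3 and 50.5 CPM against 685 and 651 CPM, and Bcl2l1, which encodes its relative BCL-XL, was higher, by 3.70- and 3.42-fold. Pim1, a kinase gene switched on by STAT5, was at 1396 and 1078 CPM against 326 and 308 CPM.

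Homing receptors were higher in 7 of 15 genes and lower in 3. The inflammatory chemokine receptor genes Ccr2 (595 and 685 CPM against 196 and 205 CPM), Ccr1 and Cxcr3 were among the higher ones, with Itgb7, Itgae and Cd44. S1pr1, the receptor for tissue exit, and the integrin genes Itga4 and Itgb1 were lower. Genes of resting T cells were lower in 6 of 12. Tcf7 was at 13.4 and 7.02 CPM against 175 and 145 CPM, and Lef1, Satb1 and Dapl1 were lower too. Il7r was the exception, at 928 and 877 CPM against 332 and 334 CPM.

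Helper lineage factors were split, with 3 of 12 higher (Gata3, Runx1 and Zbtb7b, the factor of CD4 commitment) and 3 lower (Ahr, Runx3 and Stat4). Effector cytokine transcripts were scarce: no UMI of Il4, Il5, Il13, Il17a, Il17f, Il21 or Il22 was found in members, and Ifng stood at 27.7 and 12.6 CPM against 77.0 and 166 CPM in other Cd3 cells. Cd4 was found in 47.4% and 52.9% of members and Cd8a in 5.67% and 4.13%. Cd4 detection is thus too sparse to define these cells at this depth.

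Beyond the lists, the genes most above other Cd3 cells by the smaller of the 2 ratios included Rapsn (13.7- and 13.8-fold), Frmd5 (12.9- and 13.1-fold), the laminin chain gene Lamc1 (8.71- and 9.03-fold), Pcyt1a, an enzyme gene of phosphatidylcholine synthesis (7.88- and 9.28-fold), and Sv2c (7.79- and 10.6-fold). Rapsn and Sv2c are otherwise known from synapses, and each was found in members at modest levels, 62.9 and 50.5 CPM and 189 and 170 CPM. By the less extreme of the ratios, the gene most below other Cd3 cells was Tcf7, which encodes a transcription factor of resting and memory T cells, at ratios of 0.0768 and 0.0485. The others named by the same rule included the Ly49 receptor genes Klra1 and Klra7, the gamma-delta receptor genes Trdc and Tcrg-C4, Cd8a, Cd8b1, Cd160 and Ctsw. They also included Bcl2, a survival gene, the granzyme gene Gzmf, the phosphodiesterase gene Pde3b, Samd3 and Atp8b4.

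Against Foxp3-undetected Cd4 cells, the ratios of Il2ra, Ctla4, Itgb8 and Klrg1 were smaller than against all other Cd3 cells. Il2ra was 2.31-fold (1.97 to 2.71) and 3.14-fold (2.47 to 4.03) higher, Ctla4 1.98-fold and 2.46-fold, Itgb8 2.97-fold and 3.56-fold, and Klrg1 2.63-fold and 2.76-fold. For some of the genes most above other Cd3 cells, the counting interval of this ratio included 1. These were Lrrc32 in the control library (1.35, 0.848 to 2.21) and, in the treated library, Ebi3 (1.51, 0.855 to 2.79), Rapsn (1.85, 0.898 to 4.17), Frmd5 (2.27, 0.981 to 6.11) and F830016B08Rik (2.46, 0.921 to 8.26). Of these Cd4 cells, 52 of 128 (40.6%) in the control and 16 of 76 (21.1%) in the treated library themselves held 5 or 6 of the other markers.

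Members varied among themselves. In the control library the 105 members with a Klrg1 UMI carried Gzmb at 5160 CPM and the 142 without it at 3164 CPM, whereas in the treated library the values were 3059 and 3111 CPM. Il10-positive members carried more Gzmb than Il10-negative members in both libraries, 5147 against 3607 CPM and 3909 against 2333 CPM. Il10 climbed from 124 CPM in control members with 1 Foxp3 UMI to 315 CPM in those with 4 or more, but stood at 240 and 221 CPM in the treated library.

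T cell receptor segments were too sparse for clones to be counted. A beta V segment was found in 16 of 247 control members (8 segments) and 20 of 121 treated members (11 segments). Trbv13-2 was found in 5 of 16 and 3 of 20 cells, and in the treated library Trbv2, Trbv26 and Trbv3 were each found in as many. An alpha V segment was found in 58 and 32 members, over 32 and 21 segments. Trav5-4 was found in 11 of 58 and 4 of 32 cells, the latter as many as for Trav6-7-dv9.

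The second comparison set treated against control members. Of 5148 genes with at least 50 UMIs, 436 passed the threshold (8.47%), 229 higher (4.45%) and 207 lower (4.02%) in the treated library, and the median log2 ratio was 0.00. Markers of other cells moved with this comparison. The monocyte and macrophage list summed to 439 CPM in control and 1202 CPM in treated members with all 8 markers found in both, the neutrophil list to 1032 and 3491 CPM, of which 97.6% and 98.5% came from 1 cell each, and the erythroid list to 4063 and 110 CPM (Alas2 at 0 in the latter). Of 247 control members 11 and of 121 treated members 13 held 5 or more UMIs of the macrophage list. The part of the erythroid RNA in the comparison was not tested.

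A strict screen, set after these values were seen, left out members with over 15000 UMIs, 5 or more UMIs of the macrophage or the neutrophil list, or 3 or more of the dendritic list, the NK list or Cd8a and Cd8b1. It removed 27 control and 14 treated members, 22.1% and 31.4% of the members' UMIs, and left the macrophage list at 89.3 and 90.1 CPM and the neutrophil list at 22.6 and 49.1 CPM. The NK list was left at 64.6 and 22.5 CPM and the erythroid list, on which the screen had no limit, at 2582 and 135 CPM. In the 220 and 107 members left, 302 of 4254 genes passed (7.10%), 121 higher (2.84%) and 181 lower (4.25%), of which 59 and 105 were also counted among all members. Ratios below are given for all members and then after this screen.

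Foxp3 stood at 599 CPM in control and 525 CPM in treated members, a ratio of 0.876 (0.771 to 0.994) and of 0.975 after the screen. Of the 12 other identity genes Ctla4 alone passed, lower at a ratio of 0.600 (0.544 to 0.662) and 0.631 (0.567 to 0.700). A Ctla4 UMI was present in 74.9% and 70.2% of members. The call for Ctla4 ended in other settings, with ratios of 0.722 with cycling cells kept, 0.720 with each cell weighted alike, 0.693 with Cd4 required, 0.673 with the marker screen and 0.674 with members thinned to 2000 UMIs. With each cell weighted alike Izumo1r passed instead, higher at 1.65. Il2ra was at a ratio of 0.831 (0.744 to 0.928) and 0.872, Ikzf2 at 0.922 and 1.03, Tnfrsf4 at 0.865 and 0.924, and Tnfrsf18 at 0.890 and 0.957. Neb was at 0.650 (0.552 to 0.763) among all members and at 0.738 after the screen, below the threshold.

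**Figure D4:**
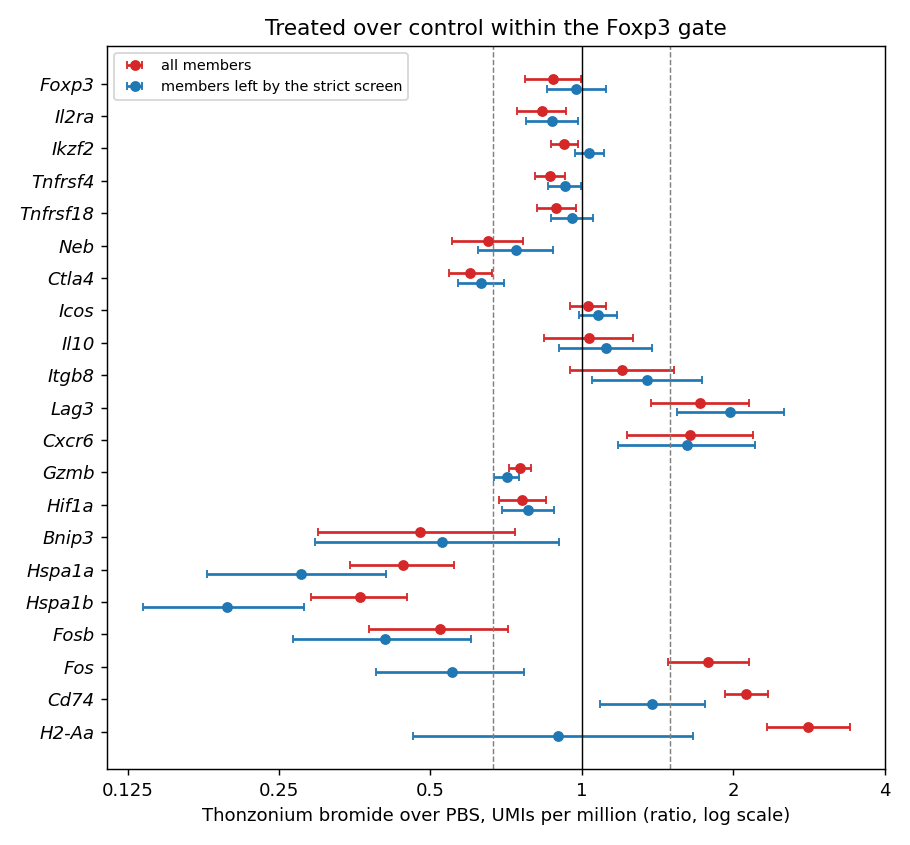
Ratio of treated to control CPM (log scale, exact 95% intervals) within the Foxp3 gate for 21 genes, among all members and among those left by the strict screen; dashed lines mark the threshold of 1.5-fold in each direction. Ctla4, Hspa1a, Hspa1b and Fosb lay lower and Lag3 and Cxcr6 higher in both sets, while Fos and H2-Aa moved to the other side of 1 after the screen.

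Suppressive mediators held 2 higher and 1 lower gene of 15, the same before and after the screen. Lag3, an inhibitory receptor for MHC class II, was at 133 and 229 CPM, a ratio of 1.72 (1.37 to 2.15) and 1.97 (1.54 to 2.53). Lag3 was present in 33.6% and 57.0% of members, and at 2000 UMIs per cell in 45 of 225 and 44 of 116, against 1.11% and 0% of B cells. Both the level of Lag3 and the share of members with a UMI of it thus stood higher in the treated library. Other Cd3 cells were higher as well. After the screen members stood 2.65-fold above them in the control library and 2.92-fold in the treated library. Prf1 was at a ratio of 2.08 (1.53 to 2.83) and 1.98, but its share at 2000 UMIs was 12.9% in both libraries, with 6.67% and 3.51% in B cells, so no order is read from it. Il10 (ratio 1.03, 0.840 to 1.26), Ebi3 (1.06), Lrrc32 (0.992), Itgb8 (1.20, 0.948 to 1.52) and Entpd1 (0.737) did not pass, nor did Gzmb at 0.755 (0.717 to 0.794).

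Few effector state genes passed the threshold between libraries. None of 16 was higher and 1, Neb, was lower, and after the screen Nfil3 was the lower one, at 0.629. Maf stood at a ratio of 0.991, Icos at 1.03, Klrg1 at 0.951, Batf at 1.04, Prdm1 at 0.794 and Tnfrsf9 at 0.837. Of 10 costimulatory receptors only Slamf6 passed, higher at 26.0 and 50.5 CPM, a ratio of 1.95 and 2.32. No NF-kB gene of 11 and no helper lineage factor of 10 passed, before or after the screen. Over all tested genes 8.47% passed among all members and 7.10% after the screen. In lists of this length few were to be found at that share, so these counts do not set the lists apart.

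Homing receptors held 3 higher and no lower gene of 14. Cxcr6, the receptor for the chemokine CXCL16, was at 84.7 and 139 CPM, a ratio of 1.64 (1.23 to 2.19) and 1.62, with shares at 2000 UMIs of 12.9% and 19.8%. Ccr1 (1.61) and Itga4 (1.90) passed among all members only. After the screen S1pr1 was higher at 1.97 and Cxcr4 lower at 0.516. Among resting genes Klf2, a factor that drives S1pr1, was lower at 0.614 among all members and at 0.727 after the screen, below the threshold. Bcl2 was lower at 0.663, but 77.8% of its UMIs in treated members came from 1 cell.

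Heat shock genes were lower in 3 of 10 and higher in none. Hspa1a was at 287 and 126 CPM, a ratio of 0.441 (0.345 to 0.558) and 0.276. Hspa1b was at 399 and 145 CPM, a ratio of 0.362 (0.290 to 0.449) and 0.197. Dnajb1, the co-chaperone gene, was at a ratio of 0.628 and 0.610. The constitutive chaperone gene Hspa8 was at 1.07, unlike the stress-induced HSP70 genes. At 2000 UMIs per cell Hspa1b was present in 29.3% and 10.3% of members and in 21.1% and 18.6% of B cells, which can make this transcript themselves. Other Cd3 cells were lower as well, at 402 and 195 CPM for Hspa1b.

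Immediate early genes depended on the screen. Among all members Fos was higher at a ratio of 1.78 (1.48 to 2.15) and Fosb lower at 0.523 (0.378 to 0.713). After the screen Fos (1.05 with each cell weighted alike) was lower at 0.552, Fosb at 0.407, Jun at 0.510 and Dusp1 at 0.635, 4 of 12 measured genes. MHC genes did likewise: H2-Aa, H2-Ab1, H2-Eb1 and Cd74 of 11 were higher among all members, by 2.81-, 2.50-, 2.99- and 2.12-fold, and none passed after the screen, with ratios of 0.895, 0.872, 1.51 and 1.38. The class I genes H2-K1 (0.994), H2-D1 (0.988) and B2m (1.08) did not pass in either set. Gbp2 was the gene of 16 interferon-stimulated genes to pass, at 1.60 before and 1.02 after the screen, when Ifit3 passed instead, lower at 0.631.

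Metabolic lists held few genes past the threshold. In the hypoxia and glycolysis list Bnip3, a mitophagy gene induced by HIF-1, was lower at 0.476 (0.298 to 0.737) and 0.527, and Pgk1 at 0.687 and, past the threshold, at 0.575. Hilpda, another HIF target that acts on lipid droplets, was lower at 202 and 47.7 CPM, a ratio of 0.236 (0.160 to 0.339) and 0.259, while Hif1a itself was at 0.762. In the sterol list 3 of 5 genes were lower. Among them Fabp5, a fatty acid carrier gene, was at 0.585 and 0.642, and Hmgcs1, an enzyme gene of sterol synthesis, at 0.502. Of 15 subunit genes of the vacuolar proton pump 2 were higher, Atp6v1a (1.52) and Atp6v1c1 (1.73), and 1 was lower, Atp6v1h (0.470). After the screen 12 of these genes could still be compared and Atp6v1h alone passed, at 0.442. The median log2 ratio was 0.17 over the 15 and -0.16 over the 12.

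The 12 genes with the highest ratios among all members included Retnlg, Ccl12, Tgfbi, C1qa, C1qb, Lgmn, Ccl2, Itgam, Clec4a3, Marcks and Wfdc17, most of them known from macrophages, monocytes or neutrophils. Retnlg, a neutrophil gene, was at 9.22 and 522 CPM and 99.7% of its treated UMIs came from 1 cell. C1qa, a complement gene of macrophages, was at 50.3 and 213 CPM, in 4.45% and 7.44% of members. By the same rule the screened members gave instead Cd81, a tetraspanin gene, at 54.9 and 166 CPM, a ratio of 3.02 (2.10 to 4.38), and Tnfrsf13b (2.09), Stap1 (2.09), Prf1, Lag3 and Rara (1.93), the gene of a retinoic acid receptor. Lag3 and Cd81 were thus among the genes most above control once macrophage-bearing barcodes were out.

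The lowest ratios among all members were those of Cxcl3, Hilpda, Thbs1, Hspa1b, Ccl3, Tcf4, Snhg5, Ctsl, Hspa1a, Amn1, Ier3 and Jaml. Cxcl3 was at 124 and 9.83 CPM with 98.0% of its control UMIs from 1 cell. Ccl3, an inflammatory chemokine gene, was at 373 and 142 CPM, a ratio of 0.380 and 0.395, with 40.7% of its control UMIs from 1 cell. After the screen Gzmc, at 246 and 30.7 CPM, and Gzma (0.192) came first, genes whose shares in members lay near those in B cells of the same library. Hspa1b, Hilpda and Hspa1a came next, and after them the interferon target gene Cxcl10 (0.368) and the gene Spp1 (0.381), which encodes osteopontin. Gzmf had 55 UMIs in control members and 0 in treated members, at least 10.9-fold lower against a floor of 3 UMIs in the treated members. The part of free RNA in the control members' Gzmf was not tested.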

How the data were processed

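Single-cell RNA was measured in 2 libraries, 1 per group, and groups were taken from the treatment labels. The authors deposited raw UMI counts, 1 matrix per library over 32285 genes, written by Cell Ranger 6.1.2 per the file headers. The submitters' processing notes name Cell Ranger, Seurat 3.0, R 3.5.3 and mm10, and the labels a 10x 3' kit of the V2 chemistry. The libraries held 7803 and 6724 barcodes with 46348444 and 52973138 UMIs. Barcodes were kept from 200 genes upward and up to 20% of UMIs from mitochondrial genes, 6419 and 5833, and the gate given with the results was applied to raw counts. No doublet caller was run, and cells with markers of other types were screened out in alternatives instead. B cells, used for background, had at least 2 Cd79a UMIs and no Cd3 UMI.

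Counts were summed over the cells of a group and scaled to CPM. A gene needed 50 UMIs over both libraries (treated against control) or 50 UMIs in each library over members and other Cd3 cells. Thinning drew 2000 UMIs per cell without replacement and left out shallower cells. Intervals cover counting error only. The ratio intervals and calls were tested on simulated Poisson counts with 200 genes changed. The simulation held no variation between cells, so it does not cover genes whose UMIs come largely from 1 cell. Python 3.11.15, numpy 2.4.6, scipy 1.17.1, pandas 2.3.3 and matplotlib 3.10.9 were used.

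The members, the 20 gene lists and the 15 marker lists were chosen with earlier results of these data known. Named genes are those of the lists and, by rule, the 12 highest and 12 lowest treated-to-control ratios (among genes of 100 or more UMIs that reach 50 CPM in 1 library and whose interval excludes 1) and the 15 genes highest and 15 lowest against other Cd3 cells in both libraries. Mitochondrial, ribosomal, haemoglobin, antigen receptor segment and sex-linked genes and unnamed models were left out of the ranks. Examples were picked from these for known function. Results of a few genes of the lists are not reported here. Genes named after the strict screen follow the same rule on the cells it left. Alternatives changed the cell filter, the gate, the scaling, the depth, the UMI minimum and the fold.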

Additional observations from a re-analysis of the deposited data

Results flagged for a closer look

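Among the genes named by list or rule, 3 differed in opposite directions between treated and control libraries in members and in other Cd3 cells, each past the 1.5-fold threshold with a counting interval that excludes 1. The difference between the cell groups was not tested, since there is 1 library per group. Ccl3, which encodes a chemokine of activated lymphocytes and macrophages, was at a ratio of 0.380 in members and 1.53 in other Cd3 cells. After the strict screen these ratios were 0.395 (0.301 to 0.514) and 2.75 (2.44 to 3.09). Among all control members, 40.7% of the Ccl3 UMIs came from 1 cell. Other Cd3 cells did not move as 1 group for Ccl3. Before the screen, treated Foxp3-undetected Cd4 cells were lower than control ones (54.7 against 660 CPM), as members were. Treated Foxp3-undetected Cd8 cells were higher (294 against 88.0 CPM). The lower Ccl3 level was thus not particular to members. Tnf, an inflammatory cytokine gene, was at 0.381 in members and 1.86 in other Cd3 cells, and at 0.401 (0.196 to 0.755) and 1.95 (1.51 to 2.55) after the screen, with 45.5% of its control UMIs among members from 1 cell. Ier3, an immediate early gene, was at 0.450 in members and 1.60 in other Cd3 cells, with 56.2% of control and 58.1% of treated UMIs among members from 1 cell each, and after the screen it had no UMI left in treated members and stood at 1.16 (0.860 to 1.58) in other Cd3 cells, short of the threshold. The part of single cells in these ratios was not tested beyond the screen.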

How the results depend on the processing

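No paired analysis was possible because each group has 1 library, and leaving out a replicate was not possible for the same reason. The share of members among Cd3 cells was lower in the treated library under each of the 9 other gates and filters. Its ratio was 0.588 as reported and between 0.567 and 0.645 under these, except after thinning to 2000 UMIs (0.465) and to 1000 UMIs (0.418). The counts of genes higher and lower in treated members, 229 and 207 as reported, were 76 and 95 with members thinned to 2000 UMIs, 48 and 57 at 200 UMIs or more, and 85 and 56 at 2-fold. The higher count alone moved past 1.5 times under 4 settings, to 144 with Cd4 required, 125 with the marker screen, 121 with the strict screen, which was added after seeing the data, and 366 at 20 UMIs or more. The counts against other Cd3 cells, 963 higher and 415 lower, were 542 and 711 with mitochondrial, ribosomal, haemoglobin and granzyme genes out of the total, 481 and 245 with thinning, 453 and 236 at 2-fold, and 634 higher at 200 UMIs or more. Some treated-to-control ratios crossed 1, and the cause was not tested. With Cd4 required these were Cxcl3 (6.26) and Tcf4 (1.43). With the marker screen they were Atp6v1a (0.984), C1qb (0.368), Ccl12 (0.289), Fos (0.581), Itgam (0.506) and Retnlg (0). With the strict screen they were C1qa (0.951), C1qb (0.346), Ccl12 (0.272), Cxcl3 (13.3), Fos (0.552), H2-Aa (0.895), H2-Ab1 (0.872) and Thbs1 (1.27). These ratios are given whatever number of UMIs a setting left. Cxcl3 had 148 UMIs in all control members, 98.0% from 1 cell, and 7 in all treated members, all from 1 cell. No rise is read from its ratios here. Of 1067 values of single genes under alternatives, 801 stayed within their counting interval, 250 left it without crossing 1 or from a value near 1, and 16 crossed 1. Genes below 50 UMIs among all members, among them Ccr8 and Ifng, were not compared between libraries at this depth.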

Other observations

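Ttn, which encodes the muscle protein titin, stood at 113 and 67.4 CPM in control and treated members against 15.4 and 4.02 CPM in other Cd3 cells, 7.33- and 16.7-fold higher, and was found in 12.6% and 15.7% of members. Ttn was found in 10.8% of the control members with a Neb UMI and in 16.9% of those without one, and in 18.3% and 10.3% of treated members. Epcam, an epithelial adhesion gene, stood at 40.2 and 28.1 CPM, 4.82- and 2.35-fold above other Cd3 cells. The epithelial keratin gene Krt8 and the collagen gene Col1a1 had no UMI in members, and Krt8 had none in other Cd3 cells either. Of the 9 genes of the fibroblast or tumour list, 3 were at 0 in control members and 5 in treated members. The others had UMIs, and the list summed to 53.6 and 39.3 CPM in members, more than in other Cd3 cells of the same library.

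Ighm, the immunoglobulin mu heavy chain gene, stood at 280 and 312 CPM in members against 121 and 87.1 CPM in other Cd3 cells and was found in 50.2% and 56.2% of members, while the B cell gene Ms4a1 had no UMI in members of either library. Pdcd1 stood at treated-to-control ratios of 0.822 in members and 1.74 in other Cd3 cells, Tox at 0.970 and 2.27, and Entpd1 at 0.737 and 1.85. The differences between these ratios were not tested.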
